A study of Homo sapiens with 4 samples.

Results

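Keratins are the intermediate filament proteins of epithelial cells. Each filament is built from heterodimers of a type II keratin and a type I keratin, so the members of a pair are usually expressed together. KRT5 and KRT14 are the pair of the basal layer of stratified squamous epithelia such as the oesophagus, where KRT15 is a further type I keratin of basal cells. KRT6A, KRT6B, KRT16 and KRT17 are induced in wounded or hyperproliferative squamous epithelium. KRT8, KRT18 and KRT19 are the keratins of simple, single-layered epithelia and are often retained or regained in carcinomas. The first 7 are called squamous keratins here and the last 3 simple keratins.

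These 10 keratin genes were examined among 13039 genes measured in KYSE180 cells, an established cell line of esophageal squamous cell carcinoma (ESCC). They were chosen by name, and their probes were found through the transcript identifier of each probe. RNA recovered from cytoplasmic lysates with an antibody against TIA1 (TIA1 RIP, 2 arrays) was compared with total RNA of the same line (2 arrays), to look for transcripts held by TIA1, an RNA-binding protein known to prefer uridine-rich sequence. The cells carried no label of a treatment or genotype, 0.2 μg RNA was labelled for each array, and RNA from control IgG precipitates was not analysed here. Without that control, binding to TIA1 and recovery on the beads cannot be told apart. Whether the total RNA came from the same cytoplasmic lysate or from whole cells is not given for these arrays, so a ratio may also hold the split of a transcript between nucleus and cytoplasm, which was not tested. Each of the 4 samples was hybridized to a single-colour Agilent array, and the labels do not say whether replicates came from separate cultures, so p-values measure only the spread between these samples.

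Signals were taken on the log2 scale relative to the 75th percentile of all spots of the same array, which is 0 on this scale, and a log2 ratio is the mean of the TIA1 RIP arrays minus that of the total RNA arrays. Levels of different genes are not compared, because the brightness of different probes is not comparable, and mean brightness is used only to group genes by signal. That 75th percentile was 69.9 fluorescence units on total RNA replicate 2 against 714 to 1514 on the other 3 arrays, and 32.2% of its spots were well above background against 45.8% to 48.4%. The log2 difference between replicates had an SD across genes of 2.00 in total RNA and 0.89 in TIA1 RIP. All 10 keratins were detected on all 4 arrays, through 14 of their 15 probes, and the remaining KRT8 probe was dropped as too dim. Of the markers of squamous epithelium 9 of 9 were detected, including TP63 and SOX2, against 1 of 6 for fibroblasts, 2 of the 4 matched for leukocytes, 2 of 4 for endothelium and 4 of 5 for glandular epithelium. Here detection on both arrays of 1 group was enough. Detected on all 4 arrays were 8 squamous, 0 fibroblast, 1 leukocyte, 1 endothelium and 3 glandular markers.

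The 4 type II genes lie on chromosome 12 and the type I genes KRT14, KRT15, KRT16, KRT17 and KRT19 on chromosome 17 of GRCh37, whereas the type I gene KRT18 lies beside KRT8 on chromosome 12. In the GENCODE annotation the 3′ untranslated regions (UTRs) of the 10 keratins ran from 64 to 544 nucleotides, and 71.1% of the 11550 genes with an annotated 3′ UTR had a longer one than any of them. To show how much uridine these transcripts offer, the 30-base stretch of the 3′ UTR with most uridines is printed for the 3 filament pairs and for KRT15 and KRT19, which are described further on. Each is written 5′ to 3′ as RNA, with runs of at least 3 uridines in capitals.
KRT5 (chr12:52908629-52908658, minus strand): aguugcucaagccaugUUUUauccUUUUcu
KRT14 (chr17:39738533-39738562, minus strand): aucaauacagcuucauuaucugaguugcau
KRT6A (chr12:52881239-52881268, minus strand): gcuucacuguuacuaaauuauuaaUUUcuu
KRT16 (chr17:39766038-39766067, minus strand): uggugggcuaauaaagcugacUUUcugguu
KRT8 (chr12:53290998-53291027, minus strand): uucaauugcUUUUUUUUUUUgguccaaaau
KRT18 (chr12:53346658-53346687, plus strand): aggaggccaauaaaaaguucagaguucauu
KRT15 (chr17:39670004-39670033, minus strand): uucauguaauaaagaauuacUUUUccUUUU
KRT19 (chr17:39679949-39679978, minus strand): gcuucugcuguccUUUggagggugucuucu
KRT8 held the longest uridine run of the 10 genes, 11 bases, and KRT14 and KRT17 held none longer than 2. Within each of these pairs the type II transcript had the more uridines in its best window, with 14 in KRT5 against 11 in KRT14, 15 in KRT6A against 11 in KRT16, and 17 in KRT8 against 7 in KRT18. A longer 3′ UTR offers more windows to choose from, and the type II transcript had the longer 3′ UTR in each pair. The part of length in these counts was not tested. A run of at least 5 uridines (UUUUU, transcript strand only) was present in the 3′ UTR of 2 of the 10 keratins, KRT6B and KRT8. The same run was present in 78.5% of all 3′ UTRs and in 47.4% of the 3074 that were as short as those of the keratins. The pentamer AUUUA was present in KRT6A and KRT19, against 69.7% of all 3′ UTRs and 34.1% of those of similar length. These letters are a description of the sequence and do not locate a TIA1 site.

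None of the 10 keratins passed the test for a difference between TIA1 RIP and total RNA (limma with Benjamini-Hochberg adjustment, adjusted p from 0.776 to 0.969). No gene on the arrays did, so that 0% were called higher and 0% lower. Without total RNA replicate 1, which leaves a single total RNA array, limma called KRT8, KRT16, KRT18 and KRT19 lower in TIA1 RIP, among 2051 genes called lower and 1849 called higher. With all 4 arrays and at an unadjusted p under 0.05, limma called 0 of the 10 keratins, 1.1% of all genes higher and 4.02% lower. On the means, each keratin had a log2 ratio below the median of all genes, -0.04, with values from -2.59 for KRT19 to -0.28 for KRT15. The lowest value depended on the total RNA arrays, since KRT19 stood at -4.84 without total RNA replicate 1 and at -0.35 without total RNA replicate 2, where KRT18 (-1.30) and others were lower. The sign depends on the scaling, since relative to the E1A spike-in probes all 10 keratins stood higher in TIA1 RIP. That scaling moves the log2 ratios of all genes by the same amount, so each keratin stayed below the median of all genes. With 2 arrays against 2, the exact two-sided permutation test cannot give a p below 0.33, and it was not used.

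**Figure D1:**
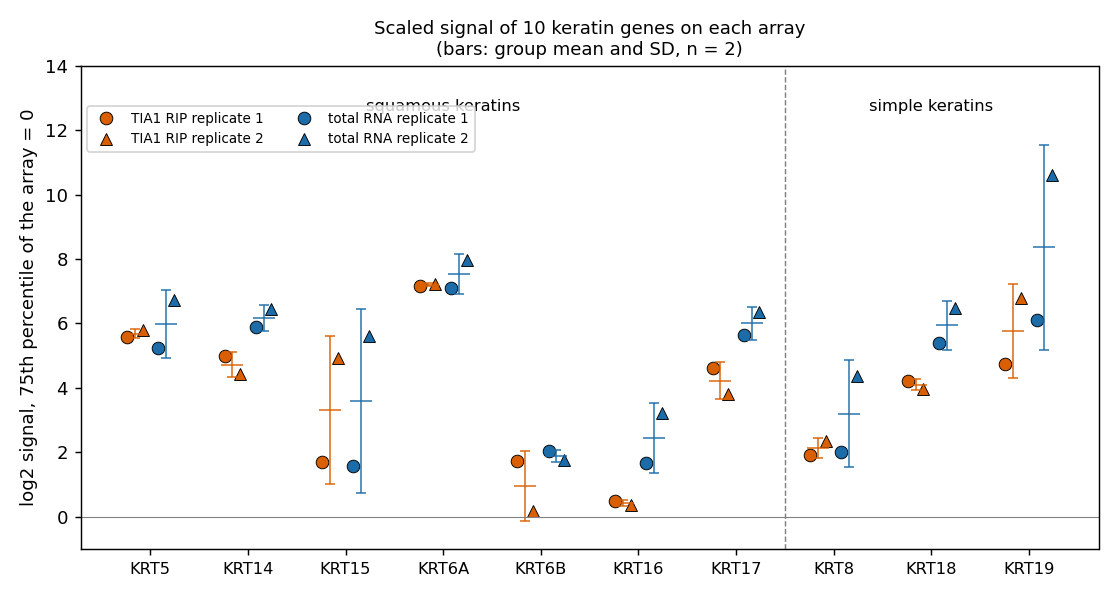
Scaled log2 signal (75th percentile of the array = 0) of the 10 keratin genes on each of the 4 arrays, with bars for the group mean and SD (n = 2). For KRT14, KRT6B, KRT16, KRT17 and KRT18 both TIA1 RIP arrays lay below both total RNA arrays, and KRT15 and KRT19 were spread most between replicates.

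Among the basal keratins, KRT5 had scaled log2 signals of 5.58 and 5.78 in TIA1 RIP and 5.25 and 6.73 in total RNA. The groups overlapped, since the TIA1 RIP arrays lay between the total RNA arrays. Its log2 ratio was -0.30 ± 0.86 (SE, limma, adjusted p = 0.936). KRT14, the type I partner of KRT5, stood at 4.99 and 4.44 in TIA1 RIP and at 5.89 and 6.44 in total RNA. Here both TIA1 RIP arrays were below both total RNA arrays, and the log2 ratio was -1.45 ± 0.79 (SE, limma, adjusted p = 0.776). The 3 probes of KRT14 gave log2 ratios of -1.27, -1.32 and -1.77. For KRT15 the TIA1 RIP arrays read 1.69 and 4.93 and the total RNA arrays 1.56 and 5.62. The gap between replicates of KRT15 was far wider than that between the groups, and its log2 ratio of -0.28 had an SE of 1.58 (limma, adjusted p = 0.969).

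Among the keratins of activated squamous epithelium, KRT6A stood at 7.17 and 7.23 in TIA1 RIP and at 7.09 and 7.96 in total RNA. Total RNA replicate 1 lay just below the TIA1 RIP arrays and replicate 2 above them, with a log2 ratio of -0.32 ± 0.80 (SE, limma, adjusted p = 0.925). The other 3 were lower on both TIA1 RIP arrays than on both total RNA arrays. KRT6B, a type II keratin close in sequence to KRT6A, read 1.72 and 0.19 against 2.03 and 1.76, a log2 ratio of -0.94 ± 0.87 (SE, limma, adjusted p = 0.801). KRT16, the usual type I partner of the KRT6 proteins, read 0.50 and 0.36 against 1.67 and 3.22. Its log2 ratio of -2.01 ± 0.87 had the lowest unadjusted p of the 10 genes, 0.0534, and an adjusted p of 0.776 (limma). KRT17, a type I keratin of hair follicle and injured epidermis, read 4.63 and 3.82 against 5.65 and 6.36, a log2 ratio of -1.78 ± 0.82 (SE, limma, adjusted p = 0.776).

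Of the simple keratins, KRT8 stood at 1.91 and 2.36 in TIA1 RIP and at 2.02 and 4.38 in total RNA. Total RNA replicate 2 stood above the other 3 arrays, and the log2 ratio was -1.06 ± 1.00 (SE, limma, adjusted p = 0.803). KRT18, the type I partner of KRT8, stood at 4.22 and 3.97 in TIA1 RIP and at 5.39 and 6.48 in total RNA. Its groups did not overlap, and its 2 probes gave log2 ratios of -1.83 and -1.84, for a gene value of -1.84 ± 0.82 (SE, limma, adjusted p = 0.776). KRT19, the smallest keratin and one without a fixed partner, read 4.74 and 6.80 in TIA1 RIP and 6.12 and 10.61 in total RNA. TIA1 RIP replicate 2 was above total RNA replicate 1, so the groups overlapped in spite of a log2 ratio of -2.59 ± 1.52 (SE, limma, adjusted p = 0.776).

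Both TIA1 RIP arrays lay below both total RNA arrays for 5 of the 10 keratins, 4 squamous and 1 simple, against 21.7% of all genes. The opposite order was found for 0 of the 10, against 19.4% of all genes. The share of the keratins was thus above that of all genes, but 6 of the 10 belonged to the 1304 brightest genes, where the median log2 ratio was -0.75 and 603 genes (46.2%) had both TIA1 RIP arrays below. The 10 transcripts were also rich in guanine and cytosine, at 55.8% to 61.9% against a median of 49.9%, and the 2286 genes in that range had a median log2 ratio of -0.69. The 3074 genes with 3′ UTRs as short as theirs had a median of -0.45. The part of brightness, base composition and UTR length in the keratin values was not tested. Removing the trend of the signal with GC content left 2 keratins with TIA1 RIP lower on both arrays and 2 with TIA1 RIP higher. The share of all genes in that setting is not given, so these counts do not show what part base composition had.

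Enrichment relative to GAPDH, an abundant mRNA taken as not bound by TIA1, was the scale on which the study screened targets. The study asked for more than 2.5-fold on the arrays and again in sequencing of precipitated RNA. Only the arrays were used here, so a keratin past 2.5-fold is not thereby a target of that screen. GAPDH itself had scaled log2 signals of 6.49 and 6.69 in TIA1 RIP and 7.67 and 9.63 in total RNA, a log2 ratio of -2.06. On the means 3 of the 10 keratins lay past 2.5-fold, KRT15 at 3.45-fold, KRT5 at 3.38-fold and KRT6A at 3.33-fold, against 72.4% of all genes. The other 7 ranged from 0.690-fold for KRT19 to 2.18-fold for KRT6B. KRT5 was the only keratin past 2.5-fold in each of the 4 pairings of a TIA1 RIP with a total RNA array, at 2.86-fold to 4.01-fold, against 26.2% of all genes. KRT15 ranged from 0.583-fold to 20.4-fold over the same pairings and KRT6A from 2.17-fold to 5.11-fold. In the limma fit of values relative to GAPDH no keratin passed, with a lowest adjusted p of 0.221, and no gene did, while 2637 genes and 0 keratins had an unadjusted p under 0.05. When the ratio was taken against the median gene instead, no keratin passed 2.5-fold.

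**Figure D2:**
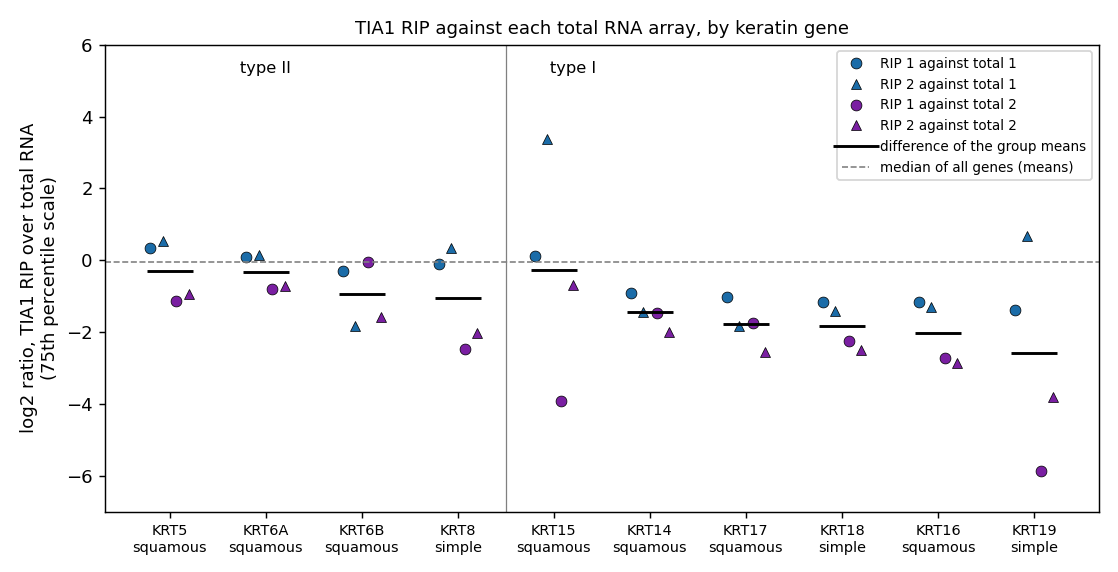
Log2 ratio of TIA1 RIP over total RNA in each of the 4 pairings of arrays, with type II keratins on the left and type I keratins on the right. Black bars are the differences of the group means and the dashed line is the median of all genes, -0.04. KRT14, KRT16, KRT17, KRT18 and, narrowly, KRT6B lie below 0 in all 4 pairings, and KRT15 and KRT19 spread most.

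The squamous keratins had a median log2 ratio of -0.94 and the simple keratins one of -1.84, beside -0.04 for all genes. The order of these medians turned without total RNA replicate 2 (-1.07 squamous, -0.35 simple) and without TIA1 RIP replicate 1 (-1.70 and -1.57). The mean of the 7 squamous keratins was 0.82 above that of the 3 simple keratins, a difference in which the scaling of whole arrays cancels. Against total RNA replicate 1 the difference was 0.48 with TIA1 RIP replicate 1 and -0.20 with TIA1 RIP replicate 2. Against total RNA replicate 2 it was 1.84 and 1.16. The sign thus turned in 1 of 4 pairings, and the mean over the TIA1 RIP arrays moved from 0.14 against total RNA replicate 1 to 1.50 against replicate 2. A difference of 0.82 was not separated from the spread between these arrays, and the total RNA values of KRT19 alone differed by 4.49 between replicates. Without KRT15 and KRT19, the keratins with the widest replicate spread, the difference was 0.32 on the means and -0.42 to 1.05 in the pairings, and it was -0.14 against total RNA replicate 1.

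A split by filament type, chosen after the values had been seen, ran the same way in each pairing. The type II keratins KRT5, KRT6A, KRT6B and KRT8 had log2 ratios from -1.06 to -0.30, and the 6 type I keratins from -2.59 to -0.28. The mean of type II exceeded that of type I by 1.00 on the means and by 0.12 to 1.88 in the 4 pairings. Within the filament pairs, the log2 ratio of KRT5 was above that of KRT14 by 1.15 on the means and by 0.31 to 1.99 in the 4 pairings. The log2 ratio of KRT6A was above that of KRT16 by 1.69, and again in 4 of 4 pairings, at 1.25 to 2.13. KRT8 exceeded KRT18 by 0.77 in log2 ratio and KRT6B exceeded KRT17 by 0.85, each in 3 of 4 pairings. Without KRT15 and KRT19 the type II mean exceeded the type I mean by 1.12, and by 0.93 to 1.30 in the pairings. Both are type I and were left out after their values had been seen. KRT15 had the highest log2 ratio of the type I keratins and KRT19 the lowest. The 4 pairings share arrays, and no test was made of a difference noticed in these values. The type II transcripts also had the longer 3′ UTRs within the pairs, 367 against 156 nucleotides for KRT5 and KRT14, 544 against 157 for KRT6A and KRT16, and 237 against 64 for KRT8 and KRT18. With the GC trend removed, the type II minus type I difference was 0.83.

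The replicate arrays differed in the keratins they carried. Relative to GAPDH on the same array, KRT15 was 8.21-fold higher in replicate 2 than in replicate 1 of TIA1 RIP and 4.25-fold higher in replicate 2 of total RNA. KRT19 was 3.61-fold and 5.76-fold higher in replicate 2. KRT6B went the other way and was at 0.301 and 0.213 of its replicate 1 level. Relative to GAPDH, KRT17 had log2 differences of -1.02 in TIA1 RIP and -1.25 in total RNA, and KRT14 had -0.75 and -1.41. GAPDH itself was 1.96 higher in replicate 2 of total RNA on the 75th percentile scale, beside 0.38 for the median gene. On that scale KRT17 was higher in replicate 2 of total RNA, by 0.71, and so was KRT14, by 0.55, whereas KRT6B stayed lower in both materials (-1.53 and -0.26). KRT5 had log2 differences of -0.00 in TIA1 RIP and -0.48 in total RNA relative to GAPDH. The same differences were 0.20 and 1.48 on the 75th percentile scale. On the 75th percentile scale 43 of the 13039 genes were at least as far up as KRT15 in both materials and 65 at least as far up as KRT19, counting the genes themselves. In unscaled fluorescence, the KRT15 probe read 4892 and 38878 units in TIA1 RIP and 2108 and 3427 in total RNA, so that it read higher on total RNA replicate 2 although that array was the dimmest.

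**Figure D3:**
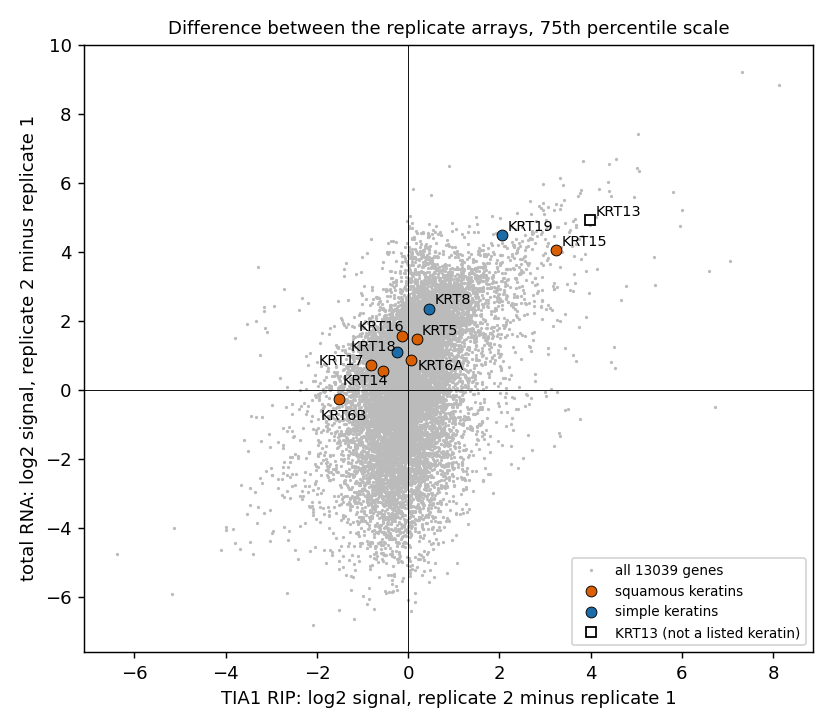
Difference in scaled log2 signal between replicate 2 and replicate 1, in TIA1 RIP (horizontal axis) and total RNA (vertical axis), for 13039 genes (grey), the 7 squamous keratins, the 3 simple keratins and KRT13. KRT15 (3.24 and 4.05), KRT19 (2.06 and 4.49) and KRT13 lie apart at the upper right, and KRT6B is the lowest keratin on both axes.

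KRT15 and KRT19 are neighbours on chromosome 17, and KRT13, the type I keratin of the suprabasal oesophagus, lies next to them. KRT13 is not among the 10 genes and was looked at after the values of KRT15 and KRT19 had been seen. Its scaled log2 signals were -1.12 and 2.88 in TIA1 RIP and -1.14 and 3.78 in total RNA. Replicate 2 was thus higher in both materials, by 3.79 and 2.95 on the log2 scale relative to GAPDH. In GRCh37 the 3 genes follow each other at chr17:39657233-39661957 (KRT13), chr17:39669997-39678781 (KRT15) and chr17:39679869-39684560 (KRT19). The next detected keratin gene, KRT9 (chr17:39722088-39728311), had log2 differences of -0.69 and -1.59 relative to GAPDH, and KRT14, KRT16 and KRT17 beyond it were also below 0 in both materials on this scale. The negative sign in total RNA depends on GAPDH. On the 75th percentile scale the total RNA differences were 0.37 for KRT9, 0.55 for KRT14, 1.55 for KRT16 and 0.71 for KRT17, beside 4.05 for KRT15, 4.49 for KRT19 and 4.92 for KRT13. In bulk RNA, a change in the share of cells that express a gene and a change in its level per cell cannot be told apart, and whether the replicates were different cultures is not stated.

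**Figure D4:**
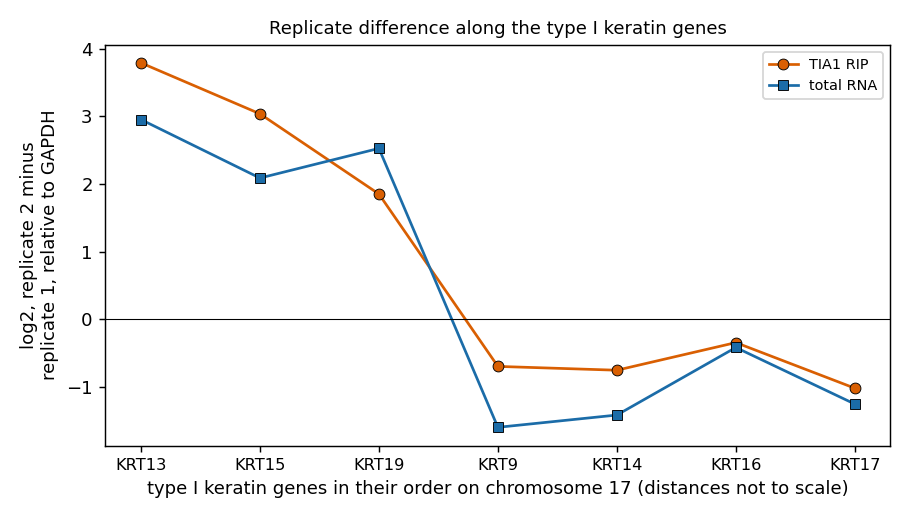
Log2 difference between replicate 2 and replicate 1, relative to GAPDH on the same array, for 7 type I keratin genes in their order along chromosome 17, in TIA1 RIP (circles) and total RNA (squares). The genes are the listed keratins of that chromosome with KRT13 and KRT9, and other keratin genes are not drawn. KRT13, KRT15 and KRT19 lie between 1.85 and 3.79, and KRT9, KRT14, KRT16 and KRT17 between -1.59 and -0.34, although on the 75th percentile scale these 4 genes were above 0 in total RNA (0.37 to 1.55), where GAPDH itself differed by 1.96.

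Keratin genes have close relatives, and the files hold no probe sequences, so that cross-hybridization was not tested. KRT6C, nearly identical to KRT6A and KRT6B, had scaled log2 signals of 3.79 and 3.87 in TIA1 RIP and 3.98 and 3.83 in total RNA, a log2 ratio of -0.08. Of 6 detected genes named as keratin pseudogenes, some resembled their parent genes and some did not. KRT18P55 had a log2 ratio of -1.77 beside -1.84 for KRT18, KRT17P1 one of -1.63 beside -1.78 for KRT17, and KRT19P2 one of -1.92 beside -2.59 for KRT19. KRT16P2 stood at -1.53 beside -2.01 for KRT16, and KRT42P at -2.31. KRT17P5, at -0.62 with overlapping groups and replicate differences of 1.70 and 3.34 on the 75th percentile scale, was unlike KRT17 (-0.81 and 0.71). KRT19P2 was also higher in replicate 2, by 2.06 in TIA1 RIP and 2.31 in total RNA on the log2 scale relative to GAPDH. Signal from such probes may come from the parent transcript, and the reverse holds as well. The annotated KRT8 gene (chr12:53290971-53343738) overlaps the start of KRT18 (chr12:53342655-53346690) on the opposite strand.

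Of the 42 other keratin genes on the array 16 were detected, 13 of them on all 4 arrays. Their log2 ratios had a median of -0.34 and ranged from -1.05 to 0.44, and the 4 furthest from the median of all genes were KRT78 (-1.05), KRT83 (-0.75), KRT3 (-0.66) and KRT7 (-0.57). For none of the 16 did the groups separate, and limma called none at an unadjusted p under 0.05. Relative to GAPDH 14 of the 16 were past 2.5-fold on the means, beside 72.4% of all genes. The list of keratin filament partners includes genes of proteins that tie the filaments to desmosomes and hemidesmosomes. Transcripts of 11 of 11 were detected, with a median log2 ratio of -0.83. The cytolinker PLEC (plectin) stood at -2.81, PPL (periplakin) at -1.53, EVPL (envoplakin) at -0.85 and DSP (desmoplakin) at -0.79. In 3 of the 11, PLEC and PPL among them, both TIA1 RIP arrays lay below both total RNA arrays, a share near the 21.7% of all genes. The remaining intermediate filament genes had 9 of 15 detected, with a median of -0.54, the lamins LMNA at -1.69, LMNB1 at 0.62 and LMNB2 at -0.54 and the neural progenitor filament NES (nestin) at -1.46. VIM (vimentin), the filament of mesenchymal cells, was not detected. No member of these lists passed the adjusted threshold (limma).

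The genes whose 4 array values ran closest to the mean profile of the squamous keratins were SPRR2F, MT-CYB and MECR, at Euclidean distances of 0.04 to 0.06 over 4 arrays on the centred log2 scale. Closest to the mean profile of the simple keratins were NDUFB11, PLXNA3 and APC2, at 0.13 to 0.15. Over only 4 arrays this likeness is no more than a description.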

How the data were processed

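The authors scanned 4 single-colour Agilent whole human genome arrays and deposited, for each, the Feature Extraction 10.7 output (10.7.1.1 per the file headers), in which every spot has a fluorescence intensity on a linear scale after background subtraction, not normalized between arrays. The study analysed the arrays in GeneSpring, and the scaling used there is not given in the sources used here. From the deposited intensity, log2 was taken and spots marked as uneven or deviant (299 to 382 of 58717 per array) were left out. Each array was scaled by its own 75th percentile, and spots were averaged per probe. Detection required the Feature Extraction flag for signal well above background on a share of 0.5 or more of a probe's spots. Probes were kept if detected on both arrays of 1 group or more, 20099 of 50599 probes. Detected probes of a symbol were averaged (13039 genes, with symbols for 34510 probes from RefSeq and GENCODE). No spot was marked as saturated. UTRs, GC content and coordinates come from the canonical GENCODE transcript on GRCh37, found for 11595 genes (88.9%), and the sequences were read from that annotation and genome. limma 3.58.1 in R 4.3.3 compared TIA1 RIP with total RNA in all 4 arrays, with Benjamini-Hochberg adjustment over all genes and a threshold of 0.05, and again on values relative to GAPDH. The fit was tested on simulated data with less random noise than these arrays showed. That test does not tell how well the fit finds changes in these arrays. Plots were made in Python 3.11.15 (matplotlib 3.10.9).

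Only 2 arrays per group limit the precision of every value. The 10 keratins and the gene lists were chosen with earlier results of these data known. The text names all 10 keratins, GAPDH, the 4 other keratins furthest from the median of all genes, the first 4 detected members of the lists of filament partners and other intermediate filaments (cell type markers are given as counts), and the 3 genes nearest to each mean profile. KRT13, KRT9, KRT6C, the pseudogene probes and the split by filament type were added after their values had been seen. The alternatives covered background correction, scaling, detection filter, choice of probe, GC content, reference gene, fold, replicate block and each array left out. The type II against type I difference and the omission of KRT15 and KRT19 were chosen after seeing the data.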

Additional observations from a re-analysis of the deposited data

How the results depend on the processing

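The mean of the squamous keratins minus that of the simple keratins ranged from 0.14 to 1.50 with single arrays left out and from 0.62 to 0.88 under other background correction, quantile normalization, probe choice, no filter and GC correction, and type II minus type I from 0.52 to 1.48 and from 0.83 to 0.99. Rescaling whole arrays and the block cannot move such a difference. With KRT15 and KRT19 left out the differences were 0.32 and 1.12. The sign of the single ratios was less stable. Scaled to the E1A spike-ins all 10 turned positive, at 4.51 for KRT5, 3.36 for KRT14, 4.54 for KRT15, 4.49 for KRT6A, 3.88 for KRT6B, 2.80 for KRT16, 3.03 for KRT17, 3.75 for KRT8, 2.98 for KRT18 and 2.22 for KRT19, so that the squamous median became 3.88 and the simple median 2.98. TIA1 RIP was then higher on both arrays for 10 keratins and lower for 0, and limma called 8364 of 13039 genes higher. This scale moves the log2 ratios of all genes by the same amount. The share of all genes with TIA1 RIP higher on both arrays is not given on it, so the count of 10 is not read as a result about the keratins. KRT5, KRT15 and KRT6A, the keratins nearest to 0, also turned positive with normexp (0.18, 0.18 and 0.16), quantile normalization (0.42, 0.15 and 1.00) and the GC trend removed (0.29, 0.28 and 0.20, with or without the block), and KRT5 and KRT15 with the 75th percentile of probes detected on all arrays (0.0074 and 0.034). With single arrays left out, KRT5 ranged from -1.04 to 0.44, KRT6A from -0.76 to 0.11, KRT8 from -2.24 to 0.11 and KRT15 from -2.30 to 1.75, each lowest without total RNA replicate 1 and highest without total RNA replicate 2, and KRT15 also turned positive, at 1.35, without TIA1 RIP replicate 1. KRT19 ranged from -4.84 to -0.35. The cause was not tested.

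The simple median moved to -1.16 with the GC trend removed, with or without the block, and to -1.16 with quantile normalization. TIA1 RIP was higher on both arrays for 2 keratins with the GC trend removed, 1 with normexp and 1 with quantile normalization, and lower for 2 with the GC trend removed. The shares of all genes in these settings are not given, so these counts are not read as a result about the keratins. Past 2.5-fold relative to GAPDH were 1 keratin with quantile normalization and 0 against the median of all genes.

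Each array left out in turn moved the simple median from -2.38 to -0.35 and the squamous median from -1.73 to -1.07, and gave 0 to 1849 genes called higher and 0 to 2051 lower, the highest counts without total RNA replicate 1. TIA1 RIP was then higher on all its arrays for 0 to 3 keratins and lower for 5 to 10. Groups separate more easily with fewer arrays, and no share of all genes stands beside these counts. They are therefore not read as a result about the keratins. Without total RNA replicate 1, where the lone total RNA array is assumed to vary like the TIA1 RIP arrays, limma called KRT8, KRT16, KRT18 and KRT19 lower (adjusted p of 0.0381, 0.0247, 0.0314 and 0.0294). On the spike-in scale it called KRT5, KRT6A and KRT15 higher (adjusted p of 0.0448, 0.0455 and 0.0439), among 8364 of 13039 genes called higher. In the other settings run it called no keratin.

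Arrays with the same replicate number deviated together (r = 0.453 across genes), but the labels give the numbers no shared culture or day. With the replicate number as a block, 57 genes were called higher and 299 lower, and none of the 10 keratins, with a lowest adjusted p of 0.0984. All 4 arrays were on 1 slide, so a slide block could not be fitted.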
